A study of Mus musculus with 76 samples.

Results

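The genes described here are 10 genes of the insulin and insulin-like growth factor (IGF) axis, namely Igf1, Ghr, Igfals, Igfbp1, Igfbp2, Igfbp4, Insr, Irs1, Irs2 and Slc2a4, among 20288 genes listed in the liver or visceral white adipose tissue (WAT) tables of female mice. They were chosen by gene symbol, with earlier results of these data known. The WAT table listed 9 of the 10 and the liver table listed all 10. The mice were C57BL/6 knock-in animals made by CRISPR editing. Fnip2C/C mice carry a single T-to-C change in the 3′UTR of Fnip2 together with a G-to-C change that was introduced to alter the guide's PAM, and Fnip2T/T mice have T at the first site. All were fed ad libitum on standard chow, and the age of the sequenced mice is not given in the sources used here. WAT came from 4 Fnip2C/C mice (590, 593, 599 and 638) and 5 Fnip2T/T mice (607, 608, 609, 657 and 658). Liver came from 5 Fnip2C/C mice (590, 591, 592, 638 and 639) and 5 Fnip2T/T mice (607, 608, 657, 658 and 659). In all, 13 mice gave 19 libraries and 6 mice gave both tissues. The change is present in every cell of the body, so an effect within WAT or liver cannot be told apart from one that reached the tissue through other organs.

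Growth hormone acts on its receptor, Ghr, to induce hepatic Igf1, and circulating IGF1 travels bound to IGF binding proteins and to the acid-labile subunit encoded by Igfals. Insulin acts on its receptor, Insr, whose substrates Irs1 and Irs2 recruit PI3-kinase and activate AKT, which in adipocytes brings the glucose transporter GLUT4, encoded by Slc2a4, to the cell surface. In liver, AKT keeps FOXO transcription factors out of the nucleus, and Igfbp1 and Irs2 are classical genes that FOXO proteins induce when insulin is low.

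Values are normalized counts, that is 3′-end RNA-seq reads per gene divided by a size factor for each library. The libraries held 4180209 to 6277644 assigned reads in WAT and 5583041 to 7523200 in liver. Fnip2 itself was low in WAT, between 14.1 and 30.9 normalized counts in Fnip2C/C mice and between 14.5 and 42.6 in Fnip2T/T mice, and these ranges overlapped. In liver it was 133 to 197 in Fnip2C/C and 49.2 to 134 in Fnip2T/T mice, with 4 of the 5 Fnip2C/C livers above every Fnip2T/T liver. The liver log2 difference was 0.63 ± 0.23 (SE), with an exact two-sided permutation p of 0.0159 and a limma adjusted p of 1.00. The counts do not show the edited base itself. The columns of the liver table stand in 2 blocks that each hold both labelled genotypes. The first holds 2 Fnip2C/C and 3 Fnip2T/T livers and the second 3 and 2. The 2 blocks of the WAT table hold 1 genotype each. In both tissues the first block has even and the second odd RNA label numbers, which follow genotype in WAT but not in liver. Groups were taken from the labels, and their match to the liver columns was not tested.

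Cell type markers were counted with the same limma test, at an adjusted p under 0.05, which 32.1% of all genes passed in WAT. Of 8 adipocyte markers, 5 were lower in Fnip2C/C WAT, among them Adipoq (log2 difference −1.20) and Plin1 (−1.65). The summed level of all 8 overlapped (16018 to 46644 RPM, the reads scaled to a library total of 1000000, in Fnip2C/C and 21794 to 46137 in Fnip2T/T). The largest part of this sum was Cfd, which was not called. It had means of 127997 normalized counts in Fnip2C/C and 85213 in Fnip2T/T, where Adipoq had 9174 and 18964. Of 8 fibroblast and preadipocyte markers 3 were higher (sums of 1320 to 2456 against 1236 to 1931), of 8 macrophage markers 1 was higher and 2 were lower (596 to 1426 against 605 to 956), and of 7 endothelial markers 1 was higher and 3 were lower (547 to 750 against 684 to 1095). The share called was 37.5% of the fibroblast and of the macrophage markers, near that of all genes. Erythroid markers were lower for 4 of 5 genes, with sums of 634 to 993 against 2172 to 3003 that did not overlap. Hepatocyte markers were lower for 2 of 3 tested genes, with sums of 48.6 to 130 against 173 to 702 RPM, compared with 89207 to 121017 in liver. In WAT these sums mostly reflect Cyp2e1, with means of 365 normalized counts in Fnip2C/C and 1372 in Fnip2T/T, where Alb had 61.1 and 174. Fgb and Cps1 had no row in WAT and Apob was at 0 in every Fnip2T/T WAT library. Ovary markers summed to 4818 RPM in WAT of Fnip2C/C mouse 593 and to at most 21.4 in every other WAT library. Small nucleolar RNAs took 0.0312% to 0.163% of reads in Fnip2C/C WAT and 0.011% to 0.0219% in Fnip2T/T WAT. The part of these differences in the results for WAT was not tested, and in bulk tissue fewer cells of a type and less RNA per cell cannot be told apart.

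The promoters of 8 of the 10 genes are in the RefSeq promoter table used here (GRCm38.p6, 300 bases each from 250 before to 50 after the start), and none is listed there for Insr or Slc2a4. They were searched on both strands for CAAAACA, the core of the insulin response element that FOXO proteins bind, which 6.28% of all 32851 promoters hold. It occurred in Igfbp1, in Irs2 and at 2 places in Irs1. The windows of all 4 matches are shown. Capitals mark the match, which reads TGTTTTG where it lies on the opposite strand.
Igfbp1, chr11:7197669-7197696, plus strand: agctcacaagCAAAACAaacttattttg
Irs2, chr8:11008949-11008976, minus strand: agtcacgtgtTGTTTTGctcttagttca
Irs1, chr1:82291533-82291560, minus strand: ctccgtcacgTGTTTTGctcctctggag
Irs1, chr1:82291454-82291481, minus strand: agccgccgctTGTTTTGgttggggctct
The match began 108 bases before the start in Igfbp1, 37 before it in Irs2 and 111 and 32 before it in Irs1. In Irs2 and in the first window of Irs1 the E-box CACGTG (7.15% of all promoters) stands beside or overlaps it, and 1 of the Igfbp2 promoters also holds an E-box. GTAAACA, a second FOXO motif (3.65% of all promoters), was found in 1 Igfals promoter, and TTCNNNGAA, the motif of STAT5, which acts downstream of growth hormone (8.3% of all promoters), in 2 Igfals promoters. A match of letters does not show a bound site.

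The first question was whether genotype changed the growth hormone and IGF1 genes in WAT. Ghr, the growth hormone receptor, had 2618, 1346, 2469 and 1970 normalized counts in Fnip2C/C mice 590, 593, 599 and 638. In Fnip2T/T mice 607, 608, 609, 657 and 658 it had 3300, 4081, 3832, 4749 and 3689. Every Fnip2C/C library was below every Fnip2T/T library, and Ghr was lower by a log2 difference of −0.94 ± 0.23 (SE), a 1.92-fold change (limma adjusted p = 0.00813, and an exact two-sided permutation p of 0.0159, the smallest that 126 groupings allow). Igf1, the ligand, had 2270, 1117, 2247 and 1403 normalized counts in the same 4 Fnip2C/C mice and 2216, 2708, 3356, 2588 and 3046 in the 5 Fnip2T/T mice. It was lower in Fnip2C/C WAT by −0.71 ± 0.24 on the log2 scale (limma adjusted p = 0.0395, exact two-sided permutation p = 0.0476). The groups overlapped through mice 590 and 599, which lay just above Fnip2T/T mouse 607, whereas scaled by library total they did not (258 to 468 RPM against 538 to 689). Igfals, which stabilizes circulating IGF1 in a ternary complex, ranged from 113 to 322 in Fnip2C/C and from 204 to 740 in Fnip2T/T WAT. The highest value was that of Fnip2T/T mouse 609, the groups overlapped, and the log2 difference of −0.66 ± 0.39 did not pass the test (limma adjusted p = 0.220). It was −0.34 without mouse 609, −0.39 without mouse 593 and −0.13 with library weights.

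Among the binding proteins, which hold IGFs and limit or prolong their action, Igfbp4 was lower in Fnip2C/C WAT. It had 977, 670, 1309 and 1483 normalized counts in Fnip2C/C mice 590, 593, 599 and 638. The 5 Fnip2T/T mice had 2084, 1549, 2112, 1814 and 1581, in the order of their numbers. The groups did not overlap, although mouse 638 came close to mouse 608, and the log2 difference was −0.77 ± 0.24 (limma adjusted p = 0.0253, exact two-sided permutation p = 0.0159). Igfbp2, a binding protein made mainly by the liver, was near the limit of detection in WAT, with 2 to 9 reads in each Fnip2C/C library. It had 2 to 4 reads in Fnip2T/T mice 608, 609 and 657, but 43 and 52 reads in mice 607 and 658. These 2 libraries made the Fnip2T/T group spread over 1.98 to 39.4 normalized counts, and the log2 difference of −0.72 ± 0.82 did not pass the test (limma adjusted p = 0.526). The summed hepatocyte markers, which in WAT mostly reflect Cyp2e1, were highest in mouse 607 (702 RPM, where the next library had 428). Alb, which encodes albumin, was at 140 and 133 normalized counts in mice 607 and 658. These were the lowest values of the Fnip2T/T group and lay above every Fnip2C/C library (29.3 to 116). The source of the Igfbp2 reads in these mice was not tested. Igfbp1 had no row in the WAT table.

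On the insulin side, Irs1 was lower in Fnip2C/C WAT, and Insr, Irs2 and Slc2a4 did not pass the test. Irs1, which links the receptor to PI3-kinase, had 232, 142, 140 and 129 normalized counts in Fnip2C/C mice 590, 593, 599 and 638, and 270, 266, 288, 199 and 309 in the 5 Fnip2T/T mice. It was lower by −0.75 ± 0.21 on the log2 scale (limma adjusted p = 0.0155, exact two-sided permutation p = 0.0317), and mouse 590 alone reached into the Fnip2T/T range. In the GENCODE annotation, Irs1 exons share 2822 bases with Gm9747 on the opposite strand, a gene with no row in either table. Insr, the receptor, had 435, 261, 277 and 439 normalized counts in the Fnip2C/C mice and 245, 247, 196, 267 and 235 in the Fnip2T/T mice. Mice 590 and 638 were well above all others, mouse 599 lay just above the Fnip2T/T range and mouse 593 within it. The log2 difference of 0.53 ± 0.20 had an exact two-sided permutation p of 0.0317 but a limma adjusted p of 0.0573, which missed the threshold, and its 95% interval was 0.10 to 0.96.

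Irs2, the second substrate, had 90.6, 44.9, 101 and 150 normalized counts in Fnip2C/C WAT and 164, 74.9, 169, 169 and 189 in Fnip2T/T WAT. Only mouse 608 kept the Fnip2T/T group within the Fnip2C/C range, and the log2 difference was −0.71 ± 0.34 (limma adjusted p = 0.124). Without mouse 608 it was −0.95 (limma adjusted p = 0.0356), and without mouse 593 it was −0.39 (limma adjusted p = 0.337). Slc2a4, which encodes GLUT4, had 1475, 708, 1147 and 827 normalized counts in Fnip2C/C mice and 1269, 1279, 1188, 1482 and 1573 in Fnip2T/T mice. Of the Fnip2C/C mice, 3 were below every Fnip2T/T mouse and mouse 590 was exceeded only by mice 657 and 658. The log2 difference was −0.44 ± 0.22 (limma adjusted p = 0.146), which became −0.63 without mouse 590 (limma adjusted p = 0.0380) and −0.27 without mouse 593 (limma adjusted p = 0.356).

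**Figure D1:**
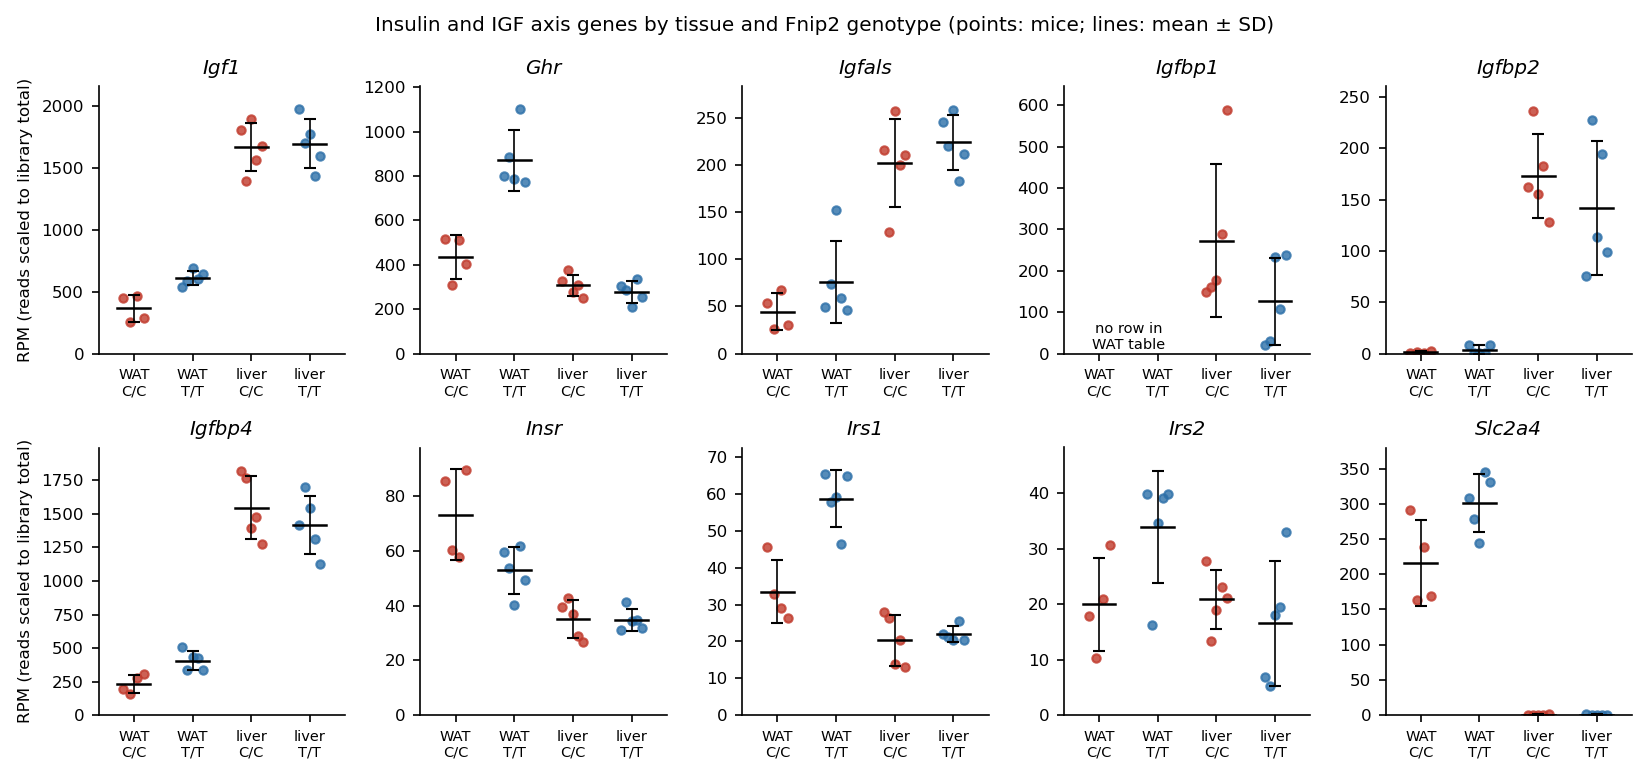
Each panel plots 1 gene in RPM on an axis from 0, with a point per mouse and lines for the mean ± SD, in WAT and liver of Fnip2C/C (red) and Fnip2T/T (blue) mice. In RPM the 4 Fnip2C/C mice lie below the 5 Fnip2T/T mice in WAT for Ghr, Igf1, Igfbp4 and Irs1. In liver the genotypes overlap for every gene. In the normalized counts that were tested, the WAT groups overlapped for Igf1 and Irs1.

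Over the 9 genes tested in WAT, 4 were lower in Fnip2C/C mice (Ghr, Irs1, Igfbp4 and Igf1), none was higher and 5 did not pass the test, which is 44.4% called. The background was high, since 32.1% of 12798 genes tested in WAT were called at the same threshold, 17% of them lower and 15.1% higher in Fnip2C/C mice. An unadjusted limma p under 0.05 was reached by 5 of the 9 genes and by 43.9% of all genes. The groups did not overlap for 2 of the 9 genes, against 26.1% of all genes. The median log2 difference was −0.71 over the 9 genes and 0.02 over all genes. Because the genes were chosen with earlier results of these data known, these comparisons with all genes are descriptions and not tests. The 4 genes share libraries and the same marker differences, so they are not 4 independent observations.

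The calls differed in whether they held with 1 mouse left out. Ghr and Irs1 passed the threshold whichever mouse was left out, with adjusted p up to 0.0234 and 0.0457. Without mouse 593, the library with ovary transcripts, Ghr was −0.74 (limma adjusted p = 0.0183) and Irs1 −0.71 (limma adjusted p = 0.0345). In the same fit Igfbp4 was −0.55 (limma adjusted p = 0.0636), Igf1 was −0.52 (limma adjusted p = 0.104) and Insr was 0.66 (limma adjusted p = 0.0272). Igfbp4 also missed the threshold without mouse 590 (−0.73) or 607 (−0.72). Igf1 missed it without mouse 608 (−0.72), 609 (−0.64), 638 (−0.62), 657 (−0.73) or 658 (−0.68). Without mouse 608 or 657 the Igf1 difference was no smaller than the −0.71 of all 9 libraries. Insr passed it without mouse 599 as well (limma adjusted p = 0.0494). Mouse numbers fall in 2 ranges, and within the range under 610 the log2 differences were −0.86 for Ghr, −0.72 for Irs1, −0.996 for Igfbp4 and −0.61 for Igf1, with 3 mice per genotype. Over 630, with 1 Fnip2C/C and 2 Fnip2T/T mice and so no test, they were −1.09 for Ghr, −0.94 for Irs1 and −0.19 for Igfbp4, and Igf1 had 1403 normalized counts against 2588 and 3046.

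**Figure D2:**
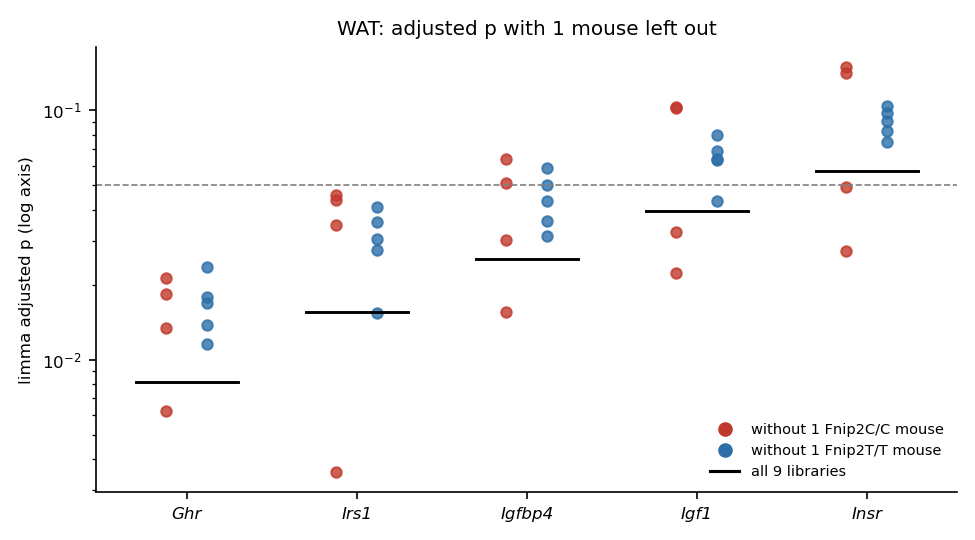
Limma adjusted p on a log axis for 5 genes in WAT, with a black line for all 9 libraries, a point for each fit that leaves out 1 Fnip2C/C (red) or Fnip2T/T (blue) mouse, and a dashed line at 0.05. Ghr and Irs1 stay under the dashed line in every fit, and Igfbp4, Igf1 and Insr cross it.

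In liver, the organ that makes most circulating IGF1, none of the 9 genes tested differed between genotypes (limma adjusted p = 1.00 for each), and 0% of 11710 genes were called. By limma with no adjustment, 0 of the 9 and 1.97% of all genes had p under 0.05. edgeR and DESeq2 also called none of the 9. The genotypes overlapped for all 9, and did not for 0.248% of all genes. Igf1 had 9127 to 12479 normalized counts in Fnip2C/C and 9817 to 13984 in Fnip2T/T livers, and the log2 difference of −0.01 had a 95% interval of −0.29 to 0.26. The intervals were similarly narrow for Insr (−0.27 to 0.29), Ghr (−0.14 to 0.46) and Igfbp4 (−0.16 to 0.43). Igfals ranged from 840 to 1691 against 1251 to 1759, with an interval of −0.51 to 0.19, and Irs1 from 91.2 to 183 against 131 to 175, with an interval of −0.56 to 0.23. Igfbp2 ranged from 921 to 1548 against 537 to 1481, and its interval reached from −0.23 to 1.00. Slc2a4 was too low to test, with 0 to 10 reads in Fnip2C/C and 0 to 13 in Fnip2T/T livers.

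Igfbp1, the binding protein that falls when insulin rises, varied far more among livers than most genes. It had 971, 1053, 1177, 2029 and 4235 normalized counts in Fnip2C/C mice 590, 591, 592, 638 and 639. In Fnip2T/T mice 607, 608, 657, 658 and 659 it had 140, 202, 1587, 728 and 1530. Mice 638 and 639 were above every Fnip2T/T liver, and the lowest 3 livers were all Fnip2T/T, but the groups overlapped. Within each range of mouse numbers, under 610 and over 630, every Fnip2C/C liver was above every Fnip2T/T liver. This split leaves 2 or 3 livers per genotype and was looked at after seeing the data. The share of all genes separated in the same way was not counted, so it is a description only. The log2 difference was 1.54 ± 0.82 (SE), the widest error among the 9 genes in liver, with a 95% interval of −0.34 to 3.41 and an exact two-sided permutation p of 0.135. The residual SD of Igfbp1 was 1.31 on the log2 scale, above that of 99.5% of the genes tested in liver, where the median gene had 0.29.

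Irs2 in liver had 182, 87.8, 125, 161 and 152 normalized counts in the Fnip2C/C mice and 48.1, 34.4, 123, 133 and 212 in the Fnip2T/T mice. Its residual SD of 0.82 exceeded that of 97.9% of genes. The 2 lowest livers were again mice 607 and 608, while Fnip2T/T mouse 659 had the highest value of all, and the groups overlapped. The log2 difference of 0.61 ± 0.49 had an exact two-sided permutation p of 0.302, and it ran from 0.27 without mouse 608 to 0.92 without mouse 659. With mice numbered under 610, the Fnip2C/C minus Fnip2T/T difference was 2.66 for Igfbp1 and 1.61 for Irs2 on the log2 scale. With those over 630 it was 1.28 and 0.05. In a fit with a term for mouse number range, added after seeing the data, it was 1.97 ± 0.37 (SE) for Igfbp1 and 0.83 ± 0.32 for Irs2. The limma p before adjustment was then 0.00052 and 0.0272, and neither gene passed the adjusted threshold.

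No gene of the other pathway lists was called in liver. The 3 with the lowest limma p without adjustment were G6pc, Pck1 and Mt2, from the list of insulin and FOXO1 target genes. G6pc, which encodes the last enzyme of hepatic glucose output, had means of 2692 ± 742 (SD, n = 5) in Fnip2C/C and 1696 ± 504 (SD, n = 5) in Fnip2T/T livers, a log2 difference of 0.68 ± 0.27. Pck1, the enzyme that commits carbon to gluconeogenesis, had means of 3491 ± 1409 and 1906 ± 750, a log2 difference of 0.87 ± 0.35. The limma p before adjustment was 0.0260 for G6pc and 0.0330 for Pck1, and the adjusted p was 1.00 for both. Mice 607 and 608 were at 1050 and 1894 for Pck1 and at 1724 and 880 for G6pc, the lowest liver in each being one of the pair. The other of the pair ranked 4 from the lowest for Pck1 and 3 for G6pc, above Fnip2C/C mouse 592 (1882 and 1517). Igfbp2 did not follow the order of Igfbp1 and Irs2 either, since mouse 607 had the lowest value (537) and mouse 608 the second highest (1481). Mt2, a metallothionein induced by glucocorticoids and metals, went the other way, with 115 to 604 normalized counts in Fnip2C/C and 142 to 3884 in Fnip2T/T livers (limma p before adjustment 0.0510, adjusted p = 1.00).

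**Figure D3:**
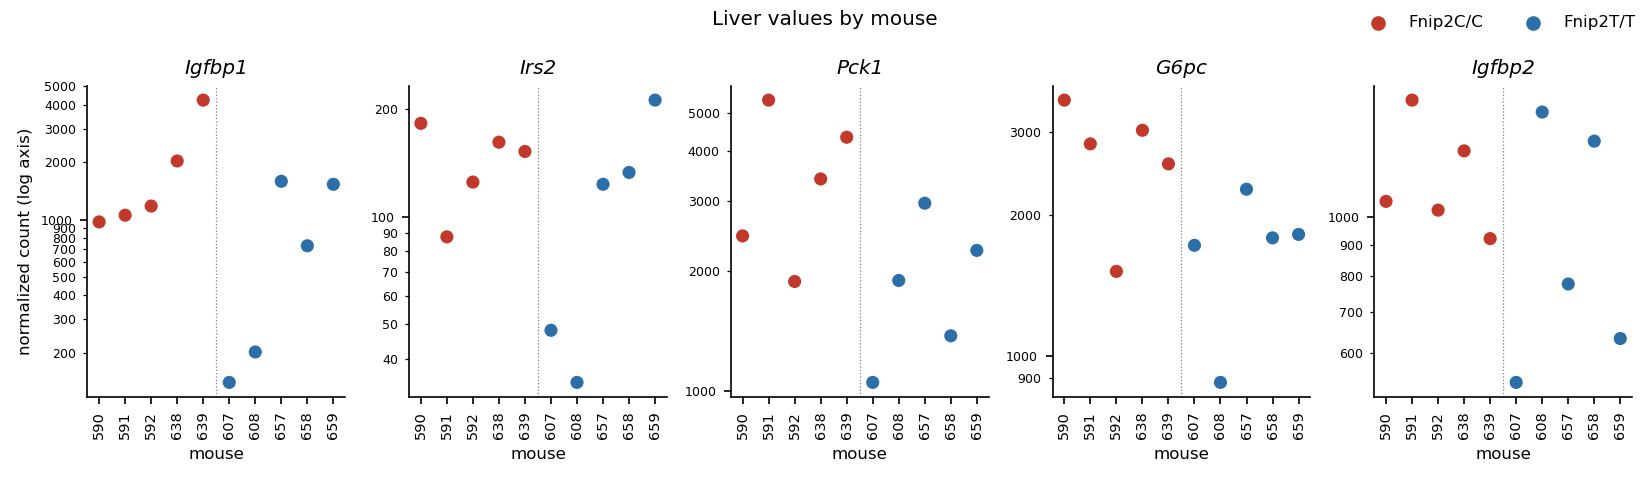
Normalized counts in each liver on log axes for Igfbp1, Irs2, Pck1, G6pc and Igfbp2, with Fnip2C/C mice in red to the left of the dotted line and Fnip2T/T mice in blue to the right. Mice 607 and 608 are the 2 lowest livers for both Igfbp1 and Irs2, and mouse 639 is the highest for Igfbp1 at 4235.

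The difference between tissues was tested directly for the 8 genes measured in both. For Ghr, the WAT effect minus the liver effect was −1.10 ± 0.26 on the log2 scale (limma adjusted p = 0.00407), and for Igfbp4 it was −0.91 ± 0.28 (limma adjusted p = 0.0187). So 2 of 8 genes passed, both of them negative, where 29.2% of 10404 genes passed in either direction and 17.7% were negative. For Igf1 the difference was −0.70 ± 0.28, with a limma adjusted p of 0.0640, and for Insr 0.52 ± 0.23, with a limma adjusted p of 0.0955. Irs1, called in WAT, gave −0.59 ± 0.29 (limma adjusted p = 0.135), so its effect was not shown to differ between tissues. Irs2 gave −1.32 ± 0.61 (limma adjusted p = 0.113), Igfals −0.49 ± 0.46 and Igfbp2 −1.10 ± 0.91. The call for Igfbp4 was lost without mouse 590 (limma adjusted p = 0.0506), and that for Ghr was kept whichever mouse was left out.

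**Figure D4:**
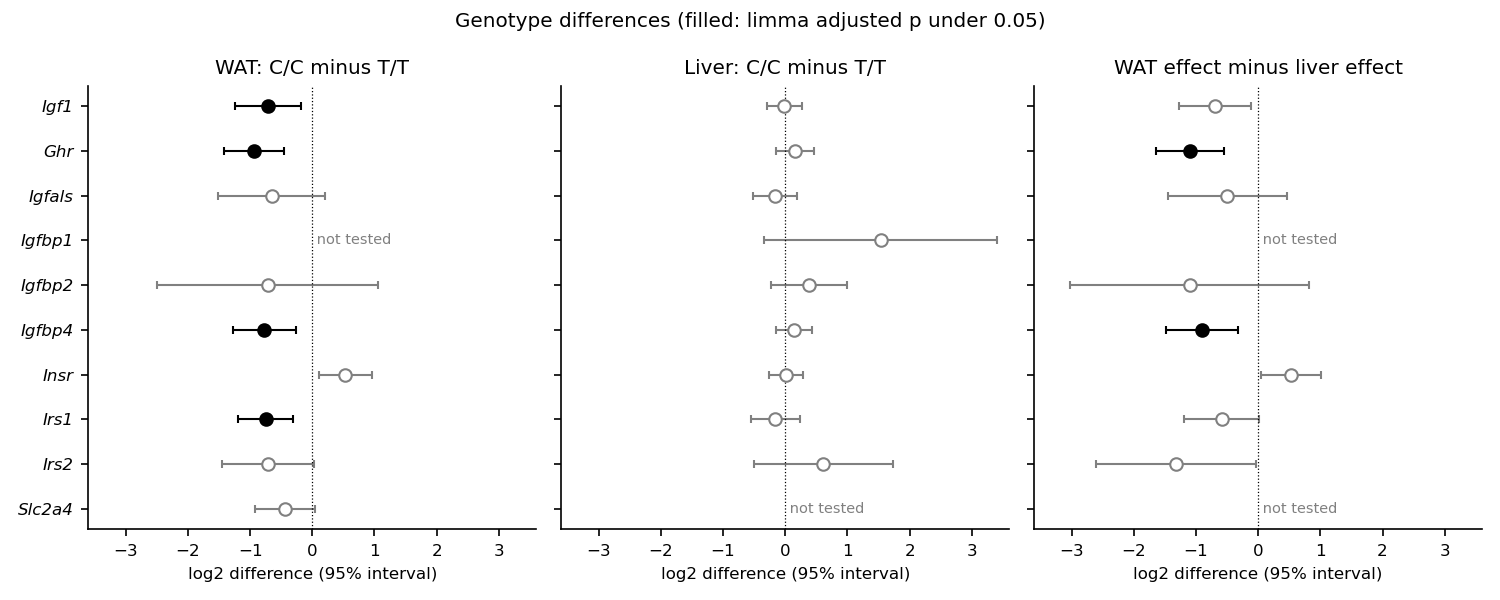
Log2 differences with 95% intervals for the genotype effect in WAT, in liver and for WAT minus liver, filled where the limma adjusted p is under 0.05. Ghr and Igfbp4 are filled in WAT and in the comparison of tissues, Igf1 and Irs1 in WAT, and no gene in liver.

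Levels in the tissues were set side by side in RPM, with no test. Igf1 was 1680 in liver and 502 in WAT on average, 3.35 times higher in liver, and liver was higher in all 6 mice that gave both tissues. The order was Fnip2T/T liver (1695 ± 199, SD, n = 5), Fnip2C/C liver (1666 ± 196, n = 5), Fnip2T/T WAT (612 ± 56.7, n = 5) and Fnip2C/C WAT (365 ± 108, n = 4). The liver groups overlapped and every other neighbour in that order was separate. Igfbp4 and Igfals were 4.52 and 3.45 times higher in liver, and Igfbp2 was 158 in liver against 2.70 in WAT. For Igfals the highest WAT library (152, mouse 609) exceeded the lowest liver (128, mouse 591).

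Ghr, Insr and Irs1 were higher in WAT, and Irs2 was not separated by tissue. Ghr averaged 678 RPM in WAT and 293 in liver, 2.31 times higher in WAT, and WAT was higher in all 6 mice. In the order of the groups, Fnip2C/C WAT (436 ± 99, n = 4) lay next to and overlapped Fnip2C/C liver (308 ± 48.4, n = 5), while Fnip2T/T WAT (871 ± 138, n = 5) stood clear. Insr was 1.78 times and Irs1 2.25 times higher in WAT, again in 6 of 6 mice. The order for Irs1 was Fnip2T/T WAT (58.8 ± 7.74), Fnip2C/C WAT (33.5 ± 8.57), Fnip2T/T liver (21.9 ± 2.17) and Fnip2C/C liver (20.3 ± 6.91) in RPM. The WAT groups did not overlap, nor did Fnip2C/C WAT and Fnip2T/T liver, while the liver groups overlapped and the highest Fnip2C/C liver (mouse 590) exceeded the lowest Fnip2C/C WAT (26.3, mouse 638). For Irs2 the 4 groups overlapped in every neighbouring pair, and 1 of 6 mice had the higher level in liver. Slc2a4 was 263 in WAT and 0.463 in liver, where 3 of the 6 mice had no read.

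The wider pathway was described from 7 lists of 85 further genes. In WAT 20 of 74 tested genes were called, 8 higher and 12 lower in Fnip2C/C mice, which is 27% beside 32.1% of all genes. Their median log2 difference was −0.003. Among binding proteins and their proteases, 1 of 8 was higher and 1 lower. Igfbp6, which prefers IGF2, was higher, at 499 to 1714 normalized counts against 378 to 576 (limma adjusted p = 0.0131), and Igfbp7, abundant in vessels, was lower by a log2 difference of −1.80 ± 0.41 (limma adjusted p = 0.00678). None of the 2 tested genes of the ligand and receptor list was called.

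Downstream of the growth hormone receptor, 1 of 5 tested genes was higher and 1 lower. Stat5b, a transcription factor that carries the growth hormone signal, had means of 381 ± 103 (SD, n = 4) in Fnip2C/C and 168 ± 32.3 (n = 5) in Fnip2T/T WAT (limma adjusted p = 0.00249). Cish, a feedback inhibitor that STAT5 induces, had 14.2 ± 12.5 against 34.4 ± 13.8 normalized counts (limma adjusted p = 0.0273). Of 11 insulin receptor adaptors and inhibitors 3 were lower and none was higher. They were the adaptor Sh2b1 (−1.29 ± 0.32, limma adjusted p = 0.00857), Grb10, which restrains the receptor (79.8 ± 27.1, SD, against 156 ± 32.3 normalized counts, limma adjusted p = 0.00969), and the adaptor Shc1 (−0.81 ± 0.24, limma adjusted p = 0.0234).

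In the PI3K and AKT list 3 of 20 genes were higher and 5 lower. Akt2, the AKT isoform that insulin uses in adipocytes, had 48.0 to 260 normalized counts in Fnip2C/C and 494 to 862 in Fnip2T/T WAT, groups that did not overlap. Its log2 difference was −2.34 ± 0.40 (limma adjusted p = 0.00174). Pdpk1, the kinase that activates AKT, was higher (0.90 ± 0.18, limma adjusted p = 0.00326). Of 15 genes for GLUT4 traffic and other glucose transporters, 3 were higher and 1 lower. The 3 were the vesicle protein Vamp2 (1.42 ± 0.27, limma adjusted p = 0.00244), the GLUT4 tether Aspscr1 (1.01 ± 0.26, limma adjusted p = 0.0114) and Stxbp3, which binds syntaxin at the plasma membrane (0.49 ± 0.16, limma adjusted p = 0.0351). Of 13 insulin and FOXO1 target genes, only Klf15, a transcription factor of gluconeogenesis and adipogenesis, was called, and it was lower (19.9 ± 12.5, SD, against 70.7 ± 28.5 normalized counts, limma adjusted p = 0.0109). Without mouse 638 the number of pathway genes called fell from 20 of 74 to 13 of 73. Over all genes it fell as well in that fit, from 4111 of 12798 to 3039 of 12772.

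**Figure D5:**
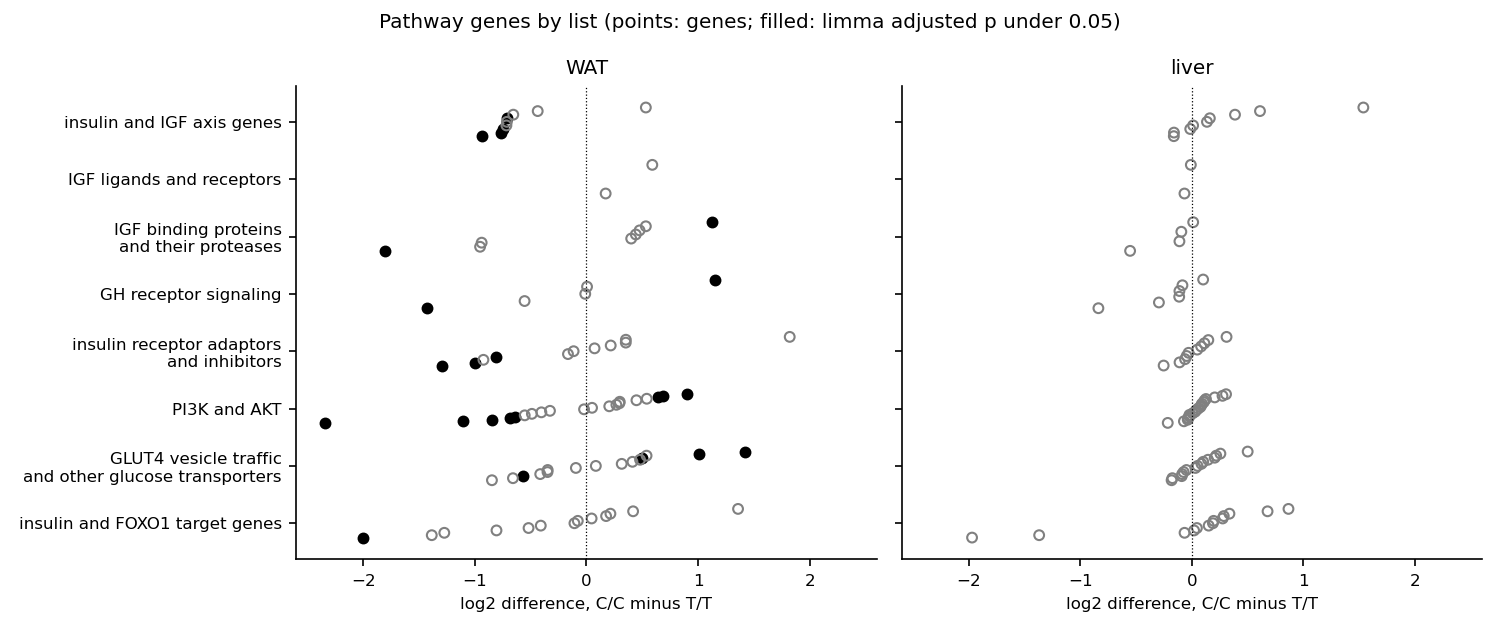
Each point is a gene's log2 difference between Fnip2C/C and Fnip2T/T mice, by list, in WAT (left) and liver (right), filled where the limma adjusted p is under 0.05. In WAT filled points lie on both sides of 0 in the binding protein, growth hormone, PI3K and GLUT4 lists, and in liver there is none.

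The genes whose log2 values over the 9 WAT libraries lay nearest to each called member, by root mean square difference after centring, are given as a description that the genotype difference enters. For Ghr they were Cldn15 (0.11) and Plpp3 (0.15), where the median over 12797 genes was 0.72. Those nearest to Igf1 were Dhdh (0.12) and Adgrl4 (0.14). For Igfbp4 they were Fam8a1 (0.13) and Man2b1 (0.17), and for Irs1 2300009A05Rik (0.12) and Cpt2 (0.14), which encodes an enzyme of mitochondrial fatty acid uptake. The 8 genes had log2 differences between −0.58 and −1.02, and Adgrl4 and Fam8a1 missed the threshold (limma adjusted p = 0.0518 and 0.0795).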

How the data were processed

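Total RNA (500 ng for WAT and 250 ng for liver) was sequenced by a stranded 3′-end method, and each mouse was sequenced in 4 runs that share 1 column. The submitters' notes name FastQC 0.11.9, SAMtools 1.12, HISAT2, HTSeq, DESeq2 and GRCm39. The values the authors deposited are a signal, gene counts that they divided by 1 size factor per library and tissue. Undoing this returned whole reads for 100% of values, within 1.8e-09. Reads carried no molecular identifiers, so they count reads and not molecules. In WAT, 1 column without labels was left out.

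Genes with a mean of at least 10 were tested per tissue with limma 3.58.1 (R 4.3.3, trend and robust) on log2(value + 1), with Benjamini-Hochberg adjustment over all genes and a threshold of 0.05, and fold changes are on that scale. Since the unit was a signal and not counts as deposited, edgeR 4.0.16 and DESeq2 1.42.0 on recovered reads were alternatives. RPM are recovered reads scaled to a library total of 1000000. Exact permutation tests used log2 values and all groupings. The scripts were tested on simulated data. Other alternatives changed the pseudocount, filter, scaling, library weights and mice included. Members and lists were chosen with earlier results of these data known. Named genes were all members, up to 3 called genes with the lowest p per list and tissue, the 3 with the lowest p where none was called, and the 2 nearest genes per called member. One gene that this rule names is not reported here.

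The 6 mice with both tissues pair the libraries by animal. Correlations of their deviations from the group means ran from −0.203 to 0.156.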

Additional observations from a re-analysis of the deposited data

Results flagged for a closer look

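Among 38 groups of 4 or 5 libraries, 5 held a value far from the rest by Dixon's test, which chance gives in about 1 group in 20. In WAT these were Igfals in Fnip2T/T mouse 609 (740 normalized counts, the others 204 to 340), Irs1 in Fnip2C/C mouse 590 (232, the others 129 to 142) and Irs2 in Fnip2T/T mouse 608 (74.9, the others 164 to 189). Mouse 590 was the Fnip2C/C library nearest to the Fnip2T/T range for Irs1, and without it the log2 difference was −0.94 (limma adjusted p = 0.00353). In liver, Slc2a4 stood at 10.6 in Fnip2C/C mouse 639 (the others 0 to 2.71) and at 12.3 in Fnip2T/T mouse 607 (the others 0 to 1.86), both of them 13 reads or fewer.

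The genotype effect differed between tissues for 2 of 8 genes by the test of the difference itself, where 29.2% of 10404 genes passed. It was −0.94 in WAT and 0.16 in liver for Ghr (difference −1.10), and −0.77 in WAT and 0.13 in liver for Igfbp4 (difference −0.91).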

How the results depend on the processing

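Of the members, 3 to 5 were called in WAT over all alternatives and none in liver under any. The number called in WAT over all genes moved as well, from 3010 of 12790 without mouse 657 to 4802 of 12798 with library weights. Ghr (log2 difference −1.11 to −0.74) and Irs1 (−0.94 to −0.66) passed the threshold in WAT under each of 19 alternatives. With library weights Igf1 in WAT was −0.46 (limma adjusted p = 0.109), within a range of 0.00846 to 0.109. Insr in WAT was called with a minimum mean of 50 (limma adjusted p = 0.0489), with DESeq2 (0.0282) and with a term for mouse number range (0.0425), the last added after seeing the data, as was a term for the column blocks of the liver table, with which 0 members were called. Leaving out 1 mouse, 13 to 24 pathway genes were called in WAT, and DESeq2 called 26. Over all genes the same fits called 3010 of 12790 (without mouse 657) to 4273 of 12835 (without mouse 590), and DESeq2 called 4722 of 12798.

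In liver, differences near 0 changed sign. Insr was −0.0029 with quantile normalization, −0.011 with library weights and −0.040 with the mouse number term, and Igf1 was 0.057 with library weights. Without 1 mouse, Insr ran from −0.056 to 0.079, Igf1 from −0.067 to 0.061 and Igfals from −0.25 to 0.0064.

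With a replicate block for the mouse, the effects of 2 members differed between tissues, as without it, and no call changed. Over the other alternatives 2 or 3 did, where 29.2% of 10404 genes passed in the main fit. Igf1 joined with quantile normalization (limma adjusted p = 0.0163) and with scaling to the same total (0.0229), and without mouse 590, 591, 599 or 607 (0.0321 to 0.0485). Insr joined without mouse 593 (0.0369) and Irs2 without mouse 659 (0.0398), and Igfbp4 dropped out without mouse 590 (0.0506). Between tissues, 4 of 9 genes were higher in liver both in RPM and in deposited values, and Irs2 was nearly equal in the latter (log2 liver minus WAT of −0.024 against −0.57). Few reads lay behind Igfbp2 in WAT (2 to 52 a library) and Slc2a4 in liver (0 to 13).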
